A study of Canis lupus familiaris with 23 samples.

Results

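The 10 genes described here encode proteins of the cornified envelope of keratinocytes, or enzymes that build or trim it: IVL, EVPL, PPL, LOR, CNFN, SCEL, FLG, ASPRV1, TGM1 and TGM3. They were taken by symbol from dog transcript counts, as 10 of 21396 named entries, and each of the 10 is listed in the count tables of all 23 libraries. The libraries come from dog skin and from epidermal organoids, which are small cell clusters grown in culture from skin cells. Bulk RNA was counted by CEL-seq2, which primes from the 3′ end of a transcript with barcoded primers, so that a count does not grow with transcript length.

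The 23 libraries fall into 12 groups. The tissue groups were whole skin (2 libraries), hair follicles, a mix of follicles in growth (anagen) and in rest (telogen) (2 libraries), and interfollicular epidermis, the epidermis between follicles (2 libraries). The organoid groups were all harvested at day 7. Follicle organoids at passages 0 to 1, called early here, gave 2 libraries without and 3 with a Tgf-beta inhibitor. At passages 3 to 6, called later here, follicle organoids gave 2 libraries without and 2 with the inhibitor. The inhibitor was also present in both interfollicular organoid groups, of 1 library each, 1 early and 1 later. Later follicle organoids without the inhibitor in their label were also placed in differentiation medium, in 3 forms of 2 libraries each: full, lacking Noggin and R-Spondin-1, or lacking Forskolin in addition to these. Noggin is an antagonist of BMPs, R-Spondin-1 strengthens Wnt signals and Forskolin raises cAMP. Media not labelled as differentiation medium are called expansion medium. No label gives a genotype, breed, sex or age, or says whether replicates are separate dogs or cultures, so the p-values below measure the spread between these libraries, which may be technical.

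A keratinocyte that reaches the skin surface replaces its plasma membrane with a cornified envelope, a sheet of proteins joined by transglutaminases. Involucrin (IVL) and the plakins envoplakin (EVPL) and periplakin (PPL) form an early scaffold under the membrane, and loricrin (LOR) and other late proteins thicken it. Filaggrin (FLG) bundles keratin filaments inside the cell, and the protease ASPRV1 takes part in its processing. In the follicle, TGM3 also joins trichohyalin in the inner root sheath.

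Library totals ran from 86301 counts in the second interfollicular epidermis library to 4822410 in the third early inhibitor library. A count of 0 therefore allowed up to 34.8 CPM (counts scaled to a common library size) in the shallowest library and 0.622 CPM in the deepest. These floors take 3 counts of the plain library total and cover counting error only. They lack the TMM scaling (a correction factor per library, here 0.757 to 1.537) that the levels below carry. Mitochondrial transcripts took 5.32 to 26.4% of counts, and both extremes lay in the early group with the inhibitor. The summed level of 10 keratinocyte markers was 9872 to 10060 CPM in follicles, 17240 to 30780 in interfollicular epidermis and 27570 to 78270 in organoids. Sums of 12 hair markers were 7404 to 9148 CPM in follicles and 100.3 to 704.9 CPM in interfollicular epidermis. Fibroblast markers summed to 5026 to 8085 CPM in follicles and 1466 to 3964 CPM in interfollicular epidermis, so neither tissue was epithelium alone. In bulk samples, fewer cells of a type and less RNA per cell cannot be told apart.

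Some libraries stood apart in these genes. The first of the 3 early follicle libraries with the inhibitor held 2.178% of its counts in the 10 genes, against 0.172% and 0.301% in the others of its group. In all 3 differentiation media, the second library held 1.134 to 1.423% of its counts in them and the first 0.169 to 0.188%. No pair of replicates was close enough to be 1 library deposited again. Changes of members that rest on these libraries, and medians over the members there, are given with and without them. Calls of other genes come from the fit of all libraries only.

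**Figure D1:**
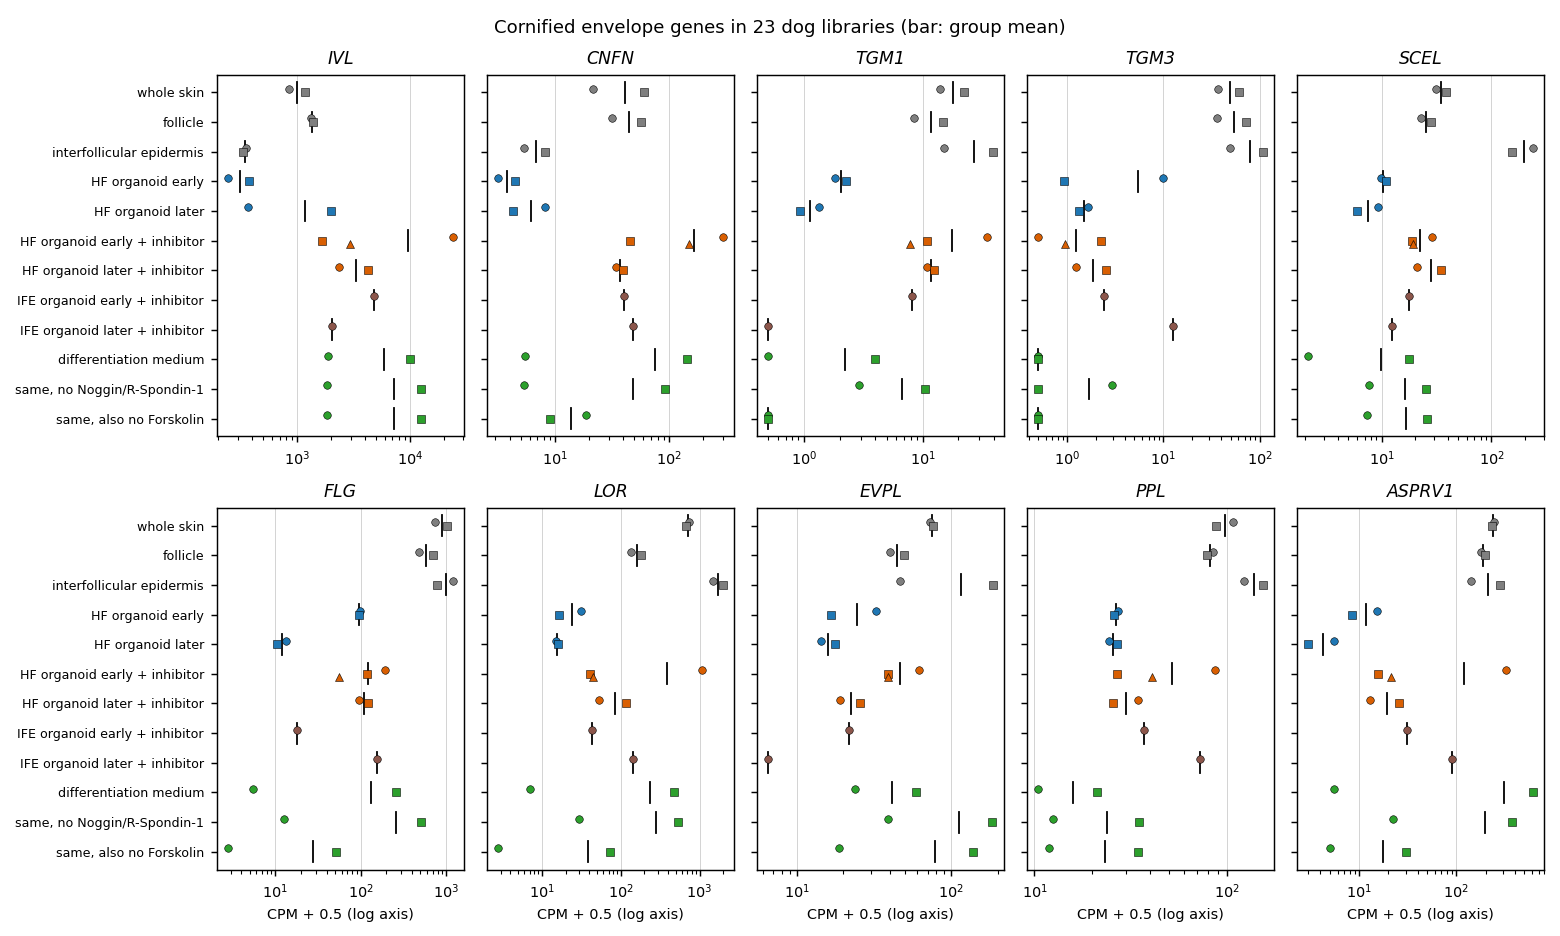
Level of each of the 10 cornified envelope genes in every library, as CPM plus 0.5 on a log axis, by group; circles, squares and triangles are replicates 1, 2 and 3, and bars are group means. IVL has its lowest group means in interfollicular epidermis and in early organoids without the inhibitor (242.8 to 373 CPM in single libraries), FLG and TGM3 have their 3 highest group means in tissue, and the 2 replicates of each differentiation medium lie far apart for FLG, LOR and ASPRV1.

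Involucrin, the elongated protein laid down early, spanned 242.8 to 24130 CPM in organoids. IVL stood at 847 and 1166 CPM in skin, 1341 and 1371 CPM in follicles, and 352 and 332 CPM in interfollicular epidermis. In follicle organoids without the inhibitor it was 242.8 and 373 CPM early and 365 and 2003 CPM later. With the inhibitor it was 24130, 1661 and 2937 CPM early and 2367 and 4299 CPM later. Every follicle library with the inhibitor was above every one without it, except that the second later library without it, at 2003 CPM, exceeded the lowest inhibitor library. Interfollicular organoids had 4846 CPM early and 2026 CPM later. The differentiation libraries held 1886 and 9982 CPM in the full medium, 1836 and 12640 CPM without Noggin and R-Spondin-1, and 1826 and 12540 CPM without Forskolin as well. The replicates of a medium thus differed far more than the media did: the 3 first libraries lay within 1826 to 1886 CPM and the 3 second ones within 9982 to 12640 CPM.

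The plakins EVPL and PPL link the envelope to keratin filaments. EVPL was at 72.3 and 75.7 CPM in skin, 39.4 and 49.0 CPM in follicles, and 45.9 and 185.2 CPM in interfollicular epidermis. Follicle organoids without the inhibitor had 32.0 and 16.2 CPM early and 13.8 and 17.1 CPM later, and those with it 61.2, 38.6 and 38.6 CPM early and 18.4 and 25.1 CPM later. EVPL was 21.1 CPM (11 counts) in the early and 6.01 CPM (1 count) in the later interfollicular organoids. Of the 11 expansion libraries, 10 were thus below the lowest tissue library. It reached 23.2 and 58.4 CPM in full differentiation medium, 38.5 and 182.8 CPM without Noggin and R-Spondin-1, and 18.3 and 136.9 CPM without Forskolin as well. All 6 of these libraries exceeded both later expansion libraries without the inhibitor, at 13.8 and 17.1 CPM. The lowest of the 6, at 18.3 CPM, held 8 counts, so its gap to 17.1 CPM is not resolved from counting error.

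PPL was higher in all 6 tissue libraries, at 78.5 to 154.3 CPM, than in 16 of the 17 organoid libraries. Follicle organoids without the inhibitor had 26.7 and 25.3 CPM early and 24.0 and 26.3 CPM later. With the inhibitor PPL was 86.8, 26.5 and 40.4 CPM early, the first of these libraries alone reaching tissue levels, and 33.9 and 25.1 CPM later. Interfollicular organoids had 36.5 CPM early and 72.2 CPM later, and the 6 differentiation libraries 9.96 to 34.6 CPM. The differentiation libraries overlapped both later expansion libraries, unlike those of EVPL.

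LOR, a late protein that makes up much of the envelope in epidermis, was highest in interfollicular epidermis at 1482 and 1975 CPM. Skin had 733 and 674 CPM and follicles 133.9 and 182.8 CPM, with no overlap between the 3 tissues. Follicle organoids without the inhibitor held 30.7 and 16.2 CPM early and 14.4 and 15.5 CPM later. With the inhibitor LOR was at 1073, 40.3 and 44.5 CPM early and 53.1 and 117.5 CPM later, so all 5 libraries were above all 4 without it, but 1 of the 5 stood far above the rest. Interfollicular organoids had 42.2 CPM early and 144.3 CPM later. In the differentiation media the first libraries had 6.64, 28.9 and 2.28 CPM, and the second 467.5, 531 and 72.7 CPM, in the order full, without Noggin and R-Spondin-1, and without Forskolin as well.

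CNFN, or cornifelin, a small envelope protein, stood at 21.1 and 59.8 CPM in skin, 31.5 and 57.2 CPM in follicles, and 4.83 and 7.72 CPM in interfollicular epidermis. Those last levels are 2 counts and 1 count, where a count of 0 allows up to 8.93 and 34.8 CPM before TMM scaling. The second library thus does not resolve a lower level, and the first rests on 2 counts. Organoids without the inhibitor held 2.67 and 3.93 CPM early and 7.62 and 3.76 CPM later, below all those with it, at 298.6, 45.5 and 150.2 CPM early and 33.9 and 39.2 CPM later. Interfollicular organoids had 40.3 CPM early and 48.1 CPM later, above both libraries of their tissue, which hold those few counts. The differentiation libraries held 4.98 and 144.4 CPM in the full medium, 4.81 and 91.4 CPM without Noggin and R-Spondin-1, and 18.3 and 8.55 CPM without Forskolin as well. The last group lacked the high second library that the other two media showed.

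SCEL, or sciellin, another envelope precursor, was several-fold higher in interfollicular epidermis than in the other tissues. Its levels were 239.0 and 154.3 CPM there, 30.7 and 37.9 CPM in skin and 22.3 and 27.6 CPM in follicles. No organoid library exceeded 34.2 CPM. Follicle organoids without the inhibitor had 9.34 and 10.5 CPM early and 8.74 and 5.44 CPM later, and those with it 28.3, 18.4 and 19.0 CPM early and 20.6 and 34.2 CPM later, with no overlap. Interfollicular organoids had 17.3 CPM (9 counts) early and 12.02 CPM (2 counts) later, and the differentiation libraries 1.66 to 25.7 CPM.

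FLG, the filament-bundling protein, was high in all tissue: 748 and 1038 CPM in skin, 479 and 705 CPM in follicles, and 1205 and 787 CPM in interfollicular epidermis. Every expansion library was lower. Without the inhibitor FLG was 98.7 and 94.3 CPM early and 12.7 and 10.03 CPM later, and with it 190.3, 118.1 and 55.3 CPM early and 95.1 and 122.6 CPM later. The later libraries without the inhibitor were thus the lowest follicle organoids in expansion medium. Interfollicular organoids went from 17.3 CPM early to 156.3 CPM later, in 1 library each. The differentiation libraries had 4.98 and 257.8 CPM in the full medium, 12.03 and 508.9 CPM without Noggin and R-Spondin-1, and 2.28 and 51.3 CPM without Forskolin as well. The last medium had the lowest value of each replicate number, but the first libraries held only 3, 5 and 1 counts, in that order of media.

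ASPRV1, the retroviral-like protease that takes part in filaggrin processing, was at 142.4 to 277.8 CPM across the 6 tissue libraries, where interfollicular epidermis overlapped skin and follicles. Follicle organoids without the inhibitor had 14.7 and 7.86 CPM early and 5.08 and 2.51 CPM later. With the inhibitor it was 320.1, 15.0 and 21.0 CPM early and 12.5 and 25.1 CPM later, so the first library was above tissue and the other 4 far below. Interfollicular organoids had 30.7 CPM early and 90.2 CPM later. The differentiation libraries held 4.98 and 615 CPM in the full medium, 21.7 and 375.5 CPM without Noggin and R-Spondin-1, and 4.57 and 29.9 CPM without Forskolin as well.

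The crosslinking enzymes were low in counts. TGM1, the membrane-bound transglutaminase of the epidermis, was at 13.4 and 21.9 CPM in skin, 7.87 and 14.5 CPM in follicles and 14.5 and 38.6 CPM in interfollicular epidermis. With the inhibitor, follicle organoids held 34.3, 10.4 and 7.31 CPM early and 10.3 and 12.1 CPM later, in the tissue range or close to it. Without it they held 1.33 and 1.75 CPM early (1 and 4 counts) and 0.846 and 0.418 CPM later (3 counts and 1 count). TGM1 was at 7.68 CPM in early interfollicular organoids and had 0 counts in later ones, where a count of 0 allows up to 13.5 CPM before TMM scaling. In differentiation medium it had 0 counts and 3.44 CPM, without Noggin and R-Spondin-1 2.41 and 9.88 CPM, and without Forskolin as well 0 counts in both libraries. These 2 libraries allow up to 6.34 and 12.6 CPM before TMM scaling, so the level there is not resolved.

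TGM3, the soluble transglutaminase, was a tissue gene in these data: 36.5 and 59.8 CPM in skin, 35.4 and 71.0 CPM in follicles, and 48.3 and 108.0 CPM in interfollicular epidermis. Among the 9 follicle organoid libraries in expansion medium it ranged from 0 to 9.34 CPM. Interfollicular organoids had 1.92 CPM (1 count) early and 12.02 CPM (2 counts) later. TGM3 had 0 counts in 5 of the 6 differentiation libraries and 2.41 CPM in the sixth.

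The order of the 12 groups was seldom resolved between neighbours. Of the 11 pairs of adjacent group means for each gene, between 7 and 9 had overlapping libraries. Interfollicular epidermis had the highest mean for TGM1, TGM3, SCEL, FLG, LOR, EVPL and PPL, 7 of the 10 genes. For IVL and CNFN the early follicle organoids with the inhibitor ranked first, and for ASPRV1 the full differentiation medium, groups whose libraries lay far apart.

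Tissues were compared first, to see how the sources of the organoids differ. Changes are log2 fold changes ± SE from edgeR's quasi-likelihood test, as the first group minus the second, with p-values adjusted by Benjamini and Hochberg over all genes of a comparison and called under 0.05. SCEL was lower in follicles than in interfollicular epidermis by a log2 change of -2.99 ± 0.53 (25.0 against 196.7 CPM, adjusted p = 0.00203). It was the only 1 of 10 members called, where 2.8% of all 9873 genes were called, 2.06% higher and 0.739% lower. Of all calls 73.6% were thus higher, and 50.3% under plain library totals. LOR had a change of -3.44 ± 1.44, with an adjusted p of 0.237, and IVL 1.98 ± 1.11, with 0.391. The 2 follicle libraries did not overlap the 2 interfollicular ones in 7 members, 2 higher and 5 lower, against 33.8% of all genes higher and 15.6% lower. The median change of the 10 members was -0.75 and that of all genes 0.21. Without the first interfollicular library SCEL was not called (-2.63, adjusted p = 0.0703).

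Companion lists gave the rest of the cornification machinery. Of 50 other envelope and keratinizing genes, 22 are in the tables and 20 were tested. In follicles 2 of these were higher than in interfollicular epidermis, TCHH, the trichohyalin of the inner root sheath (2.78 ± 0.58), and CRNN, or cornulin (1.99 ± 0.49). In the same list 5 were lower, led by KRT10, the suprabasal keratin (-4.02 ± 0.71, 663 against 10730 CPM), and the desmosomal cadherin DSC1 (-3.44 ± 0.71). Of 35 enzymes and inhibitors of cornification, 32 are in the tables and 25 were tested. The call among them was PADI3, which modifies trichohyalin and was at 37.4 CPM in follicles with 0 counts in interfollicular epidermis. Sums of hair markers were higher in follicles, as given above. They include TCHH itself, so for TCHH they are no separate measure. The part of the sums in these changes was not tested.

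Interfollicular epidermis and whole skin differed in 1 member. SCEL was higher in the former by 2.58 ± 0.53 (196.7 against 34.3 CPM, edgeR adjusted p = 0.0115), where 1.56% of all genes were called, 0.162% higher and 1.4% lower (10.4% of calls higher, and 25.7% under library totals). The call was lost without either skin library (2.41 and 2.70) or the first interfollicular one (2.21). TCHH was lower in interfollicular epidermis (-2.54 ± 0.57), and PADI3 had 23.8 CPM in skin against 0 counts. Follicles against skin gave 0 calls among the members by edgeR, 0 at an unadjusted p under 0.05 and 0 by DESeq2, where 0% of all genes were called (144 at an unadjusted p under 0.05). LOR had the largest change there, -2.15 ± 1.37.

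**Figure D2:**
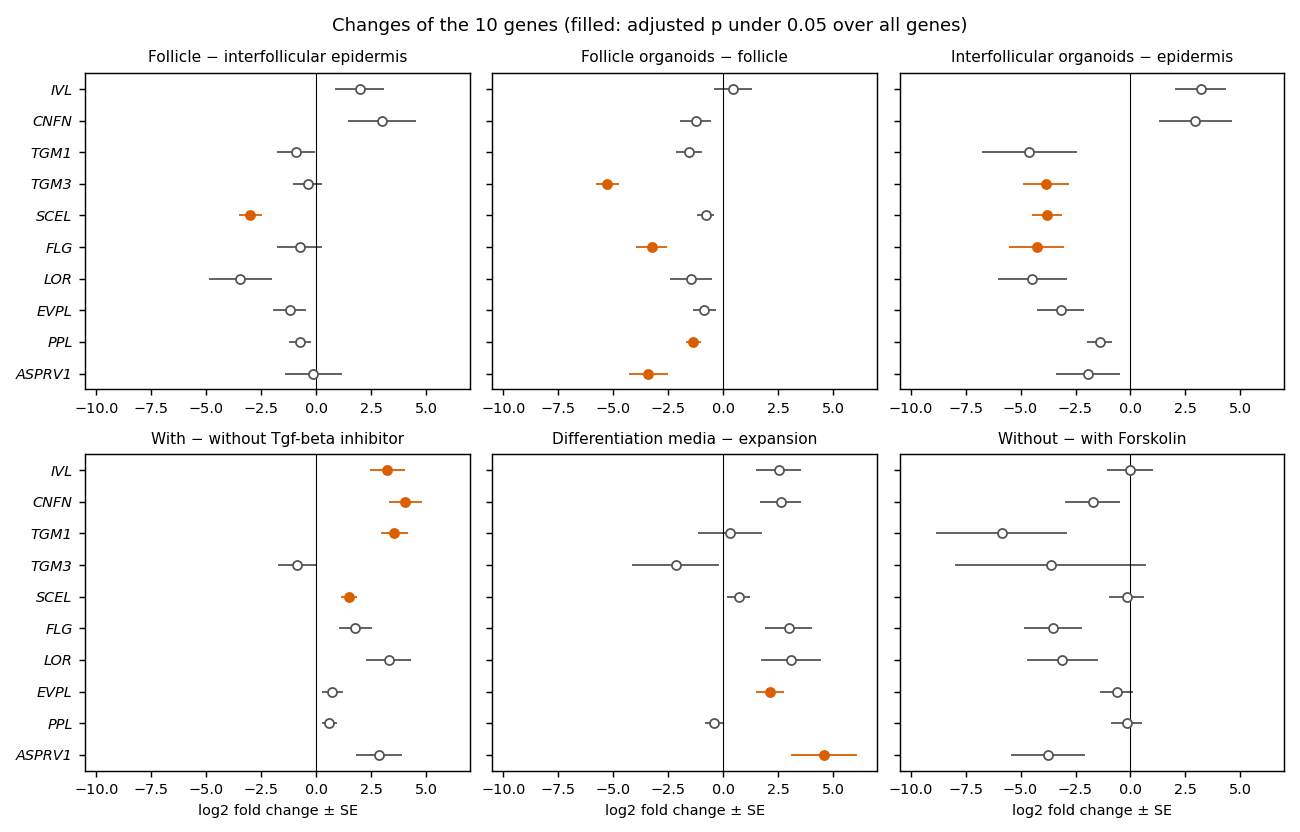
Log2 change of each member with its SE in 6 comparisons from the edgeR fit, in which filled orange points have an adjusted p under 0.05 and open points do not. TGM3 and FLG lie far below 0 in organoids against tissue, CNFN and TGM1 above 0 with the inhibitor, and no member is called for Forskolin withdrawal.

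Follicle organoids were then compared with follicles, to see what cultured follicle cells keep of their tissue. TGM3 fell by 5.27 ± 0.51 on the log2 scale (1.99 against 53.2 CPM, edgeR adjusted p = 1.24e-07) and FLG by 3.26 ± 0.69 (84.5 against 592 CPM, 0.00105). ASPRV1 fell by 3.42 ± 0.88 (adjusted p = 0.00566) and PPL by 1.36 ± 0.35 (0.00526), although the first early library with the inhibitor was above follicles in both. In all, 4 of 10 members were lower and 0 higher, where 28% of all genes were called, 19% lower and 9.04% higher (32.3% of calls higher, 22.0% under the size factors of DESeq2 and 21.3% under library totals). Libraries of organoids and follicles did not overlap for TGM3 and FLG alone, 2 of the 10 members, against 19.7% of all genes lower without overlap. TGM1 narrowly missed (-1.57 ± 0.59, adjusted p = 0.0516). IVL (0.45 ± 0.85), LOR (-1.46 ± 0.97), CNFN (-1.26 ± 0.71), SCEL (-0.81 ± 0.41) and EVPL (-0.87 ± 0.53) were not called. The CNFN change is a mean of log2 levels and is negative, although the plain mean in organoids, 52.6 CPM, is above the 44.3 CPM of follicles. The median over the members was -1.41 and over all genes 0.01.

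The calls of TGM3 and FLG remained in all 16 alternatives run. PPL was not called without the first (adjusted p = 0.0629) or the second follicle library (0.054), nor ASPRV1 without the second (0.0535). Without the first early inhibitor library LOR (-2.25, adjusted p = 0.0258) and TGM1 (-1.79, 0.00878) were called lower as well, IVL had -0.07 (0.96), and the median over the members was -1.65. Of the other envelope genes 2 of 20 rose, PKP1, a desmosome plaque protein (1.03 ± 0.37), and KRT10 (1.56 ± 0.56). In that list 8 fell, led by CRNN (-5.43 ± 0.31) and TCHH (-6.55 ± 0.37). KRT10 was at 1497 to 12980 CPM in organoids without the inhibitor and 543 to 1368 CPM with it, against 543 and 782 CPM in follicles. Of the enzymes 10 of 25 fell, led by PADI3 (-6.41 ± 0.46) and PADI1, which modifies keratin and filaggrin (-5.03 ± 0.72), and 1 rose, the protease KLK11 (3.56 ± 1.17). Fibroblast marker sums were 5026 to 8085 CPM in follicles and 61.2 to 639 CPM in the 9 organoid libraries. Hair marker sums were 7404 to 9148 CPM and 70.7 to 117.0 CPM, and keratinocyte marker sums 9872 to 10060 CPM and 45140 to 75190 CPM. The part of these differences in the member changes was not tested.

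In interfollicular organoids, each group with 1 library, 3 members were lower than in their tissue. SCEL fell by 3.80 ± 0.67 (14.7 against 196.7 CPM, edgeR adjusted p = 0.000711), FLG by 4.26 ± 1.25 (86.8 against 996 CPM, 0.0306) and TGM3 by 3.84 ± 1.06 (6.97 against 78.2 CPM, 0.0237), where 11.3% of all genes were called, 6.74% higher and 4.52% lower. Which direction held most calls depended on the scaling, with 59.9% of calls higher here and 26.2% under plain library totals. LOR was at -4.46 ± 1.56 (adjusted p = 0.0688), EVPL at -3.17 ± 1.07 (0.0602) and IVL at 3.19 ± 1.16 (0.0796), none of them called. For IVL and CNFN both organoid libraries lay above both tissue libraries, and for the other 8 members both lay below, against 25.4% of all genes above and 21.4% below without overlap. The median over the members was -3.48 and over all genes -0.14. Under library totals the median over all genes shifted to -0.70 and 6 members were called lower. The genes called lower among all 9873 rose there as well, from 446 to 1097.

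SCEL kept its call in all 9 alternatives, while FLG lost it without any 1 of the 4 libraries (-2.65 without the early organoid library to -5.79 without the later) and TGM3 without the second tissue library (-3.25) or the early organoid library (-2.53). Of the other envelope genes 6 of 20 fell and 0 rose, led by DSC1 (-8.83 ± 1.37) and DSG1, another desmosomal cadherin (-3.30 ± 0.53). None of the 25 enzymes was called. The later interfollicular library held 793.6 CPM of fibroblast and 1202 CPM of hair markers, against 153.6 and 180.5 CPM in the early one. In 1 library against 1 with no test, FLG (156.3 against 17.3 CPM), LOR (144.3 against 42.2 CPM) and ASPRV1 (90.2 against 30.7 CPM) stood higher in the later library. Their counts were 26, 24 and 15 there, against 9, 22 and 16 in the early one. PPL, TGM3 and CNFN were also higher in CPM. IVL (2026 against 4846 CPM), EVPL (6.01 against 21.1), SCEL (12.02 against 17.3) and TGM1 (0 against 7.68) were lower. The part of the fibroblast and hair markers in these differences was not tested.

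The interfollicular and follicle changes on going into culture were set against each other after their values had been seen, using the inhibitor groups. SCEL differed by -3.74 ± 0.82 (edgeR adjusted p = 0.00808), with 3.94% of all genes called, 3.48% higher and 0.456% lower (88.4% of calls higher, and 72.7% under library totals), and was the only member called. Among the organoids themselves, interfollicular against follicle with the inhibitor, 0 members were called, 0 had an unadjusted p under 0.05 and DESeq2 called 0, where 6.35% of all genes were called by edgeR, 5.82% higher and 0.527% lower. SCEL was the 1 member whose libraries did not overlap, at 12.02 to 17.3 CPM against 18.4 to 34.2 CPM, where 13.5% of all genes were lower without overlap. Its interfollicular levels are 9 counts early and 2 counts later, so the gap is not resolved from counting error. In the same comparison TCHH was higher in interfollicular organoids (2.16 ± 0.63). Hair marker sums, which include TCHH, were higher there, at 180.5 and 1202 CPM against 73.7 to 117.0 CPM.

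The Tgf-beta inhibitor was compared with no inhibitor in follicle organoids over both passage classes. Of the 10 members 4 rose and 0 fell, where 2.65% of all genes were called, 1.9% higher and 0.75% lower (71.8% of calls higher, and 53.3% under library totals). TGM1 rose by 3.56 ± 0.62 (14.3 against 1.09 CPM, edgeR adjusted p = 0.00273) and CNFN by 4.06 ± 0.76 (100.7 against 4.49 CPM, 0.0039). Without the inhibitor TGM1 held 1 to 4 counts and CNFN 2 to 27 counts per library, so the size of these changes is uncertain. IVL rose by 3.22 ± 0.80 (6454 against 746 CPM, 0.0302) and SCEL by 1.496 ± 0.37 (24.6 against 8.499 CPM, 0.0331). LOR, at 3.30 ± 1.03, was not called (adjusted p = 0.0963), nor were ASPRV1 (2.84 ± 1.05, 0.178) and FLG (1.78 ± 0.75, 0.264). The plakins had 0.74 ± 0.49 (EVPL) and 0.60 ± 0.34 (PPL), and TGM3 was the only member below 0, at -0.87 ± 0.85. The libraries did not overlap for CNFN, TGM1, SCEL and LOR, 4 of 10 members, against 4.94% of all genes higher without overlap. The median over the members was 2.31 and over all genes 0.00.

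CNFN and TGM1 kept their calls in all 14 alternatives, with changes from 3.67 to 4.37 and from 3.08 to 3.82. IVL kept its call in 8 of 14 and SCEL in 4 of 14. Without the first early inhibitor library, IVL had 2.19 (adjusted p = 0.0745), SCEL 1.37 (0.0509), LOR 1.70 (0.368) and ASPRV1 1.49 (0.522), 2 members were called, and the median over the members was 1.505. The library also had the lowest mitochondrial share of all, 5.32%. Companion genes moved both ways: KRT10 fell (-2.24 ± 0.44, 903 against 4999 CPM) and CST6, a cystatin of the cornifying layer, rose (2.47 ± 0.64) in the envelope list. Of the enzymes 2 of 25 rose and 0 fell, ALOX12B, a lipoxygenase of the lipid envelope (4.82 ± 1.24), and SDR9C7, a dehydrogenase that acts after it (3.66 ± 0.96). KRT10, an early suprabasal protein, and the 4 members called thus changed in opposite directions. Keratinocyte marker sums overlapped, at 45140 to 73970 CPM with and 60700 to 75190 CPM without the inhibitor, and fibroblast marker sums were 61.2 to 153.2 CPM and 66.9 to 639 CPM.

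By passage class, compared after the values had been seen, IVL (4.95 ± 1.21, edgeR adjusted p = 0.0479) and CNFN (5.50 ± 1.14, 0.0195) were higher with the inhibitor early, 2 of 10 members where 1.21% of all genes were called, 0.78% higher and 0.425% lower. Of those calls 64.7% were higher, and 41.7% under library totals. Without the first early inhibitor library IVL had 2.87 (adjusted p = 0.196) and CNFN 4.74 (0.0462). Without either early library lacking the inhibitor neither was called, with 4.66 (0.414) and 5.26 (0.239) for IVL and 5.33 (0.202) and 5.85 (0.183) for CNFN. IVL also missed under size factors (4.91, 0.056) and library totals (4.71, 0.0588). At later passages 0 members were called by edgeR and by DESeq2, 4 had an unadjusted p under 0.05, and 0.324% of all genes were called by edgeR, 0.203% higher and 0.122% lower. TGM1 was closest (3.86 ± 0.91, adjusted p = 0.0843), and FLG had 3.24 ± 1.16 (0.566). The libraries of 8 members did not overlap there, all higher with the inhibitor, against 19.6% of all genes. The test of the difference between passages called 0 members with edgeR and with DESeq2, with 0% of all genes called by edgeR and 1 gene by DESeq2, and IVL alone had an unadjusted p under 0.05 (-3.46 ± 1.49, later minus early; -1.37 without the first early inhibitor library).

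Passage itself gave 0 called members by edgeR and by DESeq2, where 0.355% of all genes were called, 0.172% higher and 0.182% lower, and 1 member had an unadjusted p under 0.05. That was FLG, with -1.61 ± 0.75 (adjusted p = 0.672) over both inhibitor arms. In the added comparison without the inhibitor FLG stood at 12.7 and 10.03 CPM later against 98.7 and 94.3 CPM early (-3.07 ± 1.15, adjusted p = 0.768), where 0.0506% of all genes were called, all of them lower, and with it at -0.15 ± 0.95 (1.0; 0.34 without the first early library), where 0.0608% were, 0.0405% higher and 0.0203% lower. In both companion lists 0 genes were called for passage.

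**Figure D3:**
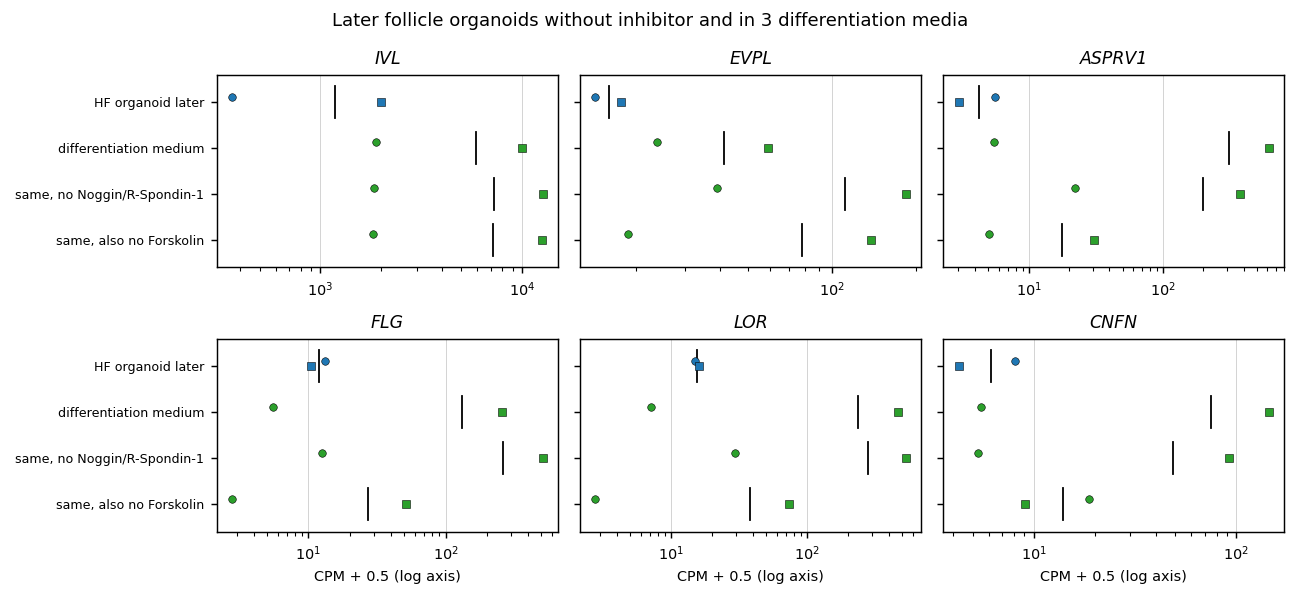
Levels of the members, as CPM plus 0.5 on a log axis, in later follicle organoids in expansion medium without the inhibitor and in the 3 differentiation media, with circles for replicate 1 and squares for replicate 2. The second library of each differentiation medium lies above the first for IVL, FLG, LOR, EVPL and ASPRV1, and EVPL is above both expansion libraries in all 6. The lowest of the 6 is above by little, at 18.3 against 17.1 CPM.

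The differentiation media were compared with later follicle organoids in expansion medium without the inhibitor. Of the 10 members 2 rose and 0 fell, where 14.5% of all 9717 genes were called, 4.38% higher and 10.1% lower. EVPL rose by 2.11 ± 0.63 (76.4 against 15.5 CPM, edgeR adjusted p = 0.0304) and ASPRV1 by 4.57 ± 1.49 (175.3 against 3.79 CPM, 0.0437). FLG (2.97 ± 1.08, adjusted p = 0.0693), CNFN (2.60 ± 0.95, 0.0688), IVL (2.51 ± 1.01, 0.0968) and LOR (3.09 ± 1.37, 0.131) were not called, and PPL had -0.41 ± 0.44. EVPL was the 1 member without overlap, where 7.9% of all genes were higher without overlap. Its gap, 18.3 CPM (8 counts) against 17.1 CPM, is not resolved from counting error. The median over the members was 2.31 and over all genes -0.14, and that over the members was 2.92 without the 3 first and -0.83 without the 3 second differentiation libraries. The tables of the 6 differentiation libraries list other genes than those of the 17 others, so that medium and library set cannot be told apart.

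The result turned on which libraries entered. Without the 3 first libraries of the differentiation media, the changes were 4.003 for FLG, 4.10 for LOR, 3.27 for IVL, 2.84 for EVPL and 5.53 for ASPRV1. Without the 3 second libraries they were -1.13, -0.95, 0.64, 0.72 and 0.99, in the same order. Of the 10 members, 9 were above 0 in the former fit and 4 in the latter. The sets were told apart by the members' own levels, so neither fit is a separate test of them. Leaving out any 1 of the 3 second libraries, or either expansion library, left 0 members called. DESeq2 called 4 members, where it called 1438 genes in all, 665 higher and 773 lower. The first libraries held keratinocyte marker sums of 64400 to 78270 CPM and the second 27830 to 63810 CPM. Simple and sweat epithelium marker sums were 36.5 to 62.6 CPM in the first and 101.3 to 119.8 CPM in the second, against 9.31 and 20.5 CPM in the expansion libraries. Mitochondrial transcripts took 14.9 to 17.1% of counts in the first, 7.98 to 12.6% in the second and 15.4 and 17.3% in the expansion libraries. The part of any of these in the member changes was not tested.

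Taken by medium, after the values had been seen, ASPRV1 rose in the full medium (6.23 ± 1.61, edgeR adjusted p = 0.0357; 3.32% of all genes called, 1.26% higher). Without Noggin and R-Spondin-1, FLG (4.50 ± 1.22, 0.0335), EVPL (2.83 ± 0.72, 0.0252) and ASPRV1 (5.63 ± 1.58, 0.0397) rose, with 5.92% of all genes called, 2.34% higher. Without Forskolin as well 0 members were called, 2 had an unadjusted p under 0.05, DESeq2 called 1, and 3.32% of all genes were called, 1.02% higher (30.7% of calls higher, and 44.8% under size factors). These 3 comparisons share their expansion libraries. Each of the calls was lost without the second library of its medium, which left ASPRV1 at 0.31 in the full medium and FLG at 0.06, EVPL at 1.30 and ASPRV1 at 2.42 in the medium lacking Noggin and R-Spondin-1. Without either expansion library the calls were also lost, but with changes close to those above: 6.85 and 5.83 for ASPRV1 in the full medium, and 4.68 and 4.31 for FLG, 2.68 and 2.96 for EVPL and 6.24 and 5.23 for ASPRV1 in the other. Of the other envelope genes 3 of 20 fell over the 3 media and 0 rose, among them KRT10 (-2.44 ± 0.47) and DSP, the desmosome plaque protein desmoplakin (-1.38 ± 0.32). The protease KLK5 rose (6.404 ± 1.86, 42.9 against 0.350 CPM) and CTSC, or cathepsin C, fell (-1.34 ± 0.44), each the 1 of 24 enzymes called in its direction.

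Withdrawal of Noggin and R-Spondin-1 from differentiation medium gave 0 called members, 0 at an unadjusted p under 0.05 and 0 by DESeq2, where 0% of all genes were called and 258 had an unadjusted p under 0.05. The further withdrawal of Forskolin gave 0 called members by edgeR and by DESeq2, where 0% of all genes were called and 329 had an unadjusted p under 0.05. FLG (-3.52 ± 1.33, 26.8 against 260.5 CPM) and ASPRV1 (-3.76 ± 1.69, 17.3 against 198.6 CPM) had an unadjusted p under 0.05 there and an adjusted p of 1.0. LOR was at -3.11 ± 1.62 and IVL at -0.01 ± 1.05. For these 3 genes and IVL, the libraries of both media overlapped. FLG, LOR and ASPRV1 were lower without Forskolin in the first libraries as well as in the second. The first libraries held few counts of them: 1 against 5 for FLG, 1 against 12 for LOR and 2 against 9 for ASPRV1.

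Read as a share, the make-up of the members' counts differed most between interfollicular epidermis and organoids. IVL held 9.64% (95% exact binomial interval 8.20 to 11.2%) and 8.25% (6.04 to 11.0%) of the counts of the 10 genes in the interfollicular epidermis libraries, 29.7% and 33.8% in skin, and 57.0% and 49.8% in follicles. These intervals cover counting error only, and the follicle libraries lay outside each other's interval (54.7 to 59.3% and 48.3 to 51.3%). In the 17 organoid libraries it held from 51.9% (46.5 to 57.2%) in an early library without the inhibitor to 97.2% (96.6 to 97.8%) in a library without Forskolin. For each count of FLG and LOR together there were 0.12 and 0.131 IVL counts in interfollicular epidermis, 0.572 and 0.681 in skin, 1.54 and 2.19 in follicles and 1.88 to 400.0 in organoids. The shares compare libraries, since genes may be captured unequally, and the highest ratio rests on 2 counts of FLG and LOR. In both libraries of each tissue the ratio was lowest in interfollicular epidermis and highest in follicles.

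**Figure D4:**
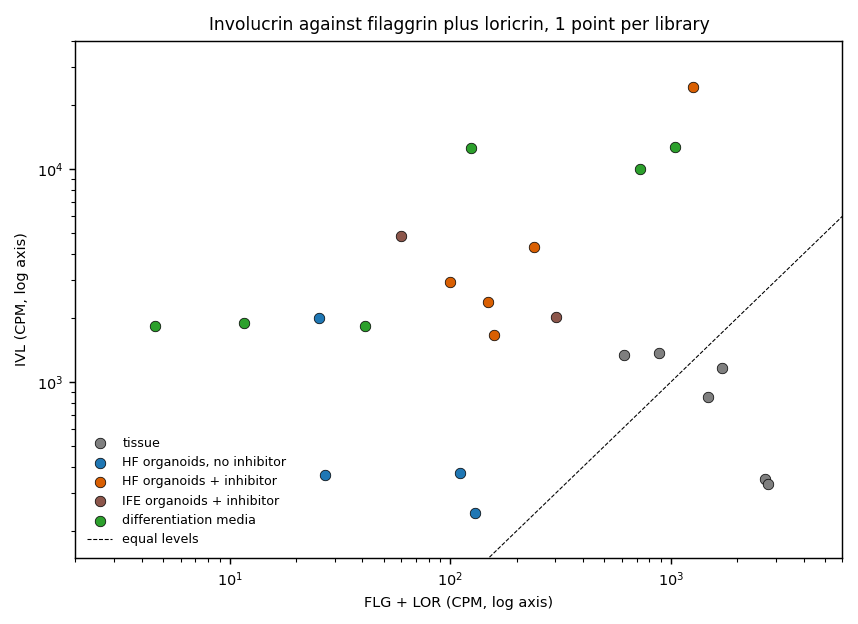
IVL against the sum of FLG and LOR in each of the 23 libraries, both on log axes in CPM. The interfollicular epidermis libraries lie lowest in IVL for their FLG and LOR, at 0.12 and 0.131 IVL counts per FLG and LOR count, and the organoid libraries lie to the side of IVL, at 1.88 to 400.0.

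Across the 12 group means, the members fell into patterns that are given as descriptions, since the groups share a single set of scaled libraries and range widely in depth. The Pearson correlation of mean log2 CPM was 0.92 between TGM3 and PPL, 0.89 between FLG and LOR, 0.88 between LOR and ASPRV1 and 0.88 between TGM3 and FLG. IVL and CNFN had 0.68, while IVL had -0.62 with TGM3 and -0.48 with FLG. Among 6695 candidate genes, those most like IVL were CEACAM1 (0.94), LXN (0.93) and RHOC (0.91). Those most like FLG were ESYT2 (0.95), SEMA4A (0.93) and LSP1 (0.93), and those most like LOR were KPRP, a keratinocyte proline-rich protein (0.95), ATP6V1C2 (0.94) and RAB27B (0.92).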

How the data were processed

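Per the labels' protocols, total RNA was made into CEL-seq2 libraries and sequenced in pairs. The submitters' processing notes name CanFam3.1, a dog genome build, and BWA 0.6.2-r126, an aligner. The annotation, the counting tool and barcode collapsing are not stated in the sources used here. The authors deposited counts per gene for each library, with fractions in 4.91 to 10.65% of entries, and these were handled like estimated counts and rounded. None of the members' values had a fraction. The 4 entries naming no gene held 0.461 to 2.158% of counts and were left out. Genes a table did not list were set to 0 in the fit and left out of comparisons with differentiation libraries.

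The main test was that of edgeR 4.0.16 (R 4.3.3): default low-count filter (9873 genes kept, all 10 members among them), TMM scaling, 1 mean for each of 12 groups over 23 libraries, quasi-likelihood F tests with 11 residual and 10.01 prior degrees of freedom, and Benjamini-Hochberg adjustment within, not across, comparisons. A comparison of several groups averaged their log2 means with equal weight. The SE is the change divided by the square root of F. The fit assumes that the groups with 1 library vary like the others. CPM are TMM-scaled. Alternatives were DESeq2 1.42.0, other scalings, no filter, the replicate number as a block and leaving out libraries. The scripts were tested on simulated data.

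The members, the companion lists and the marker lists were chosen with earlier results of these data known. Some genes are in both a companion and a marker list, among them TCHH, KRT10, DSG1 and DSC1. All 10 members are described. Of the companion lists, up to 2 called genes in each direction with the smallest p are named per comparison. The genes most like IVL, FLG and LOR are the 3 with the largest correlation over group means among genes with a symbol that reach 20 CPM in a group. In addition to the 12 comparisons set up, 9 were added after values were seen. No sequences or gene coordinates were used.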

Additional observations from a re-analysis of the deposited data

Results flagged for a closer look

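The change of SCEL from tissue to organoid differed between the interfollicular and the follicle source by -3.74 ± 0.82 on the log2 scale (edgeR adjusted p = 0.00808), by a test of the difference itself in a comparison added after the values had been seen. SCEL was at 239.0 and 154.3 CPM in interfollicular epidermis and at 17.3 and 12.02 CPM (9 and 2 counts) in its organoids. In follicles it was at 22.3 and 27.6 CPM, and in follicle organoids with the inhibitor at 18.4 to 34.2 CPM. The call was lost without the first interfollicular tissue library (-3.34, adjusted p = 0.0665) or the later interfollicular organoid library (-3.43, 0.0736), and remained in the other 14 of 16 alternatives. Each interfollicular organoid group has 1 library.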

How the results depend on the processing

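No called change of a member changed sign in any alternative. Of 15 calls in the 12 comparisons set up, 5 remained in every alternative: TGM3 and FLG in follicle organoids, SCEL in interfollicular organoids, and CNFN and TGM1 with the inhibitor. With library totals 6 members were called lower in interfollicular organoids, where the genes called lower in all rose from 446 to 1097. Without the filter the number of members called was 4 for follicles against interfollicular epidermis, 2 for interfollicular epidermis against skin, 7 for follicle organoids, 8 for interfollicular organoids, 7 for the inhibitor, 3 for passage, 2 for inhibitor by passage, 6 for differentiation against expansion medium and 3 for Forskolin withdrawal. Over all genes the calls without the filter were 485, 281, 3690, 1252, 642, 170, 40, 1962 and 20, in the same order. In that fit 20263 genes entered and each took the common trend of the spread in place of its own (a quasi-dispersion of 0.713 for IVL, against 4.27), so these calls disregard the spread between replicates. For differentiation against expansion medium DESeq2 called 4 members and the replicate block 1, where 1438 and 1121 genes were called in all. The median over the members was 2.92 without the first libraries of the 3 media and -0.83 without the second.

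Leaving out 1 library at a time, the members called ranged from 0 to 1 for follicles against interfollicular epidermis and for interfollicular epidermis against skin, 2 to 6 for follicle organoids, 1 to 3 for interfollicular organoids and 2 to 4 for the inhibitor. For differentiation against expansion medium the range depended on which libraries entered, as given above. It was 0 throughout for follicles against skin, passage, inhibitor by passage, interfollicular against follicle organoids, and both withdrawals.

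Replicate numbers only name libraries in the labels. Same-numbered libraries of the 3 differentiation media deviated together (correlations of 0.34 to 0.44), those of other pairs of groups little (-0.14 to 0.14). With the replicate block, 4 members were called for interfollicular organoids, 1 of them higher, and 3 for the inhibitor. ASPRV1 was not called over the 3 media (adjusted p = 0.0509), nor FLG (0.0538) and ASPRV1 (0.0523) in the medium lacking Noggin and R-Spondin-1. In a fit of the 6 differentiation libraries alone with the block, added after the values had been seen, 0 members were called for either withdrawal, and FLG had -3.13 for Forskolin (edgeR adjusted p = 0.182). The median of all genes for follicles against interfollicular epidermis moved from 0.21 to 0.07 under size factors and -0.10 under library totals, that for follicle organoids from 0.01 to -0.17 and -0.18, and that for the inhibitor under library totals from 0.00 to -0.13. Calls over all genes rose from 262 to 642 for the inhibitor, 276 to 485 for follicles against interfollicular epidermis and 35 to 170 for passage without the filter, and fell from 35 to 18 for passage with the block. They rose from 154 to 281 for interfollicular epidermis against skin without the filter, and from 1412 to 2357 for the differentiation media when the expansion libraries with the inhibitor were included. In the added comparisons DESeq2 called 498 genes against 323 for the full medium and 574 against 323 for that without Forskolin, and the block 206 and 209, 366 against 575 for that lacking Noggin and R-Spondin-1, and 66 against 119 for the inhibitor early.

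Depth limits the transglutaminases most: in the differentiation libraries a count of 0 allows 4.32 to 12.6 CPM before TMM scaling.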
